A study of Mus musculus with 12 samples.

Results

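The mitosis genes are 40 genes named for their part in dividing the cell: mitotic cyclins and kinases, kinesins and other spindle proteins, kinetochore, condensin and cytokinesis factors, and 2 transcription factors of the same programme. They were found by symbol in the deposited table of 52635 genes, whose values are FPKM, a transcript level scaled for gene length and sequencing depth. All 40 were present, and all 40 were among the 11922 tested genes, those that reached 1 FPKM or more in 2 or more libraries. The RNA came from CD4 T cells that had been isolated as naive cells from C57BL/6 mice, a standard inbred strain, after 24 h of stimulation through CD3 and CD28. Every culture was kept in charcoal-stripped serum with IL-6, IL-1β, IL-21, IL-23, TNFα and TGF-β1 and with antibodies that block IFNγ and IL-4, whether or not it received retinoic acid (RA), the active derivative of vitamin A. The 3 genotypes were RARα TG, RARα KO and wild type (WT), each with 2 libraries at 0 nM and 2 at 10 nM RA, so 12 libraries in 6 groups. What allele lies behind KO, and what construct and promoter behind TG, is not given in the sources used here. Nothing in the labels ties the 2 replicates of a group to separate animals, so a p-value reflects no more than the spread among these libraries.

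Naive T cells rest outside the cell cycle until signals from the antigen receptor and CD28 start division. Entry into mitosis is driven by Cdk1 bound to cyclins A and B, Plk1 and the Aurora kinases help to build the spindle, and a checkpoint holds the chromosomes back until every kinetochore is attached. The anaphase-promoting complex then acts through Cdc20 and Ube2c, and the central spindle directs cytokinesis. Most of these genes are transcribed late in the cycle: a complex built on the MuvB proteins keeps them silent in resting cells through an element called the cell cycle genes homology region (CHR), and in cycling cells it works with B-Myb (Mybl2) and Foxm1, while NF-Y binds CCAAT boxes nearby.

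The promoters show the shared element. RefSeq windows on GRCm38, from 250 bases before to 50 bases after the start, were found for 33 of the 40 genes, all but Foxm1, Smc4, Ccna2, Incenp, Tpx2, Aurkb and Kif20a. The CHR was searched as TTTGAA, as TTCAAA for the other strand and as TTCGAA, which reads alike on both, and the CCAAT box as CCAAT, with ATTGG for the other strand. A CHR and a CCAAT word can share at most 1 base, and each was counted on its own. The first window of each of the 33 genes was counted, while both backgrounds count every window of a gene. CHR letters were in 26 of 33 windows (78.8%), against 19.2% of all 32851 windows and 13.9% of the 10562 windows of tested genes. CCAAT letters were in 25 of 33 (75.8%), against 37.4% and 38.1%, and both in 23 of 33 (69.7%), against 7.52% and 5.82%. With all 35 windows of the 33 genes the shares were 80.0% for CHR, 77.1% for CCAAT and 71.4% for both. A match is a run of letters, not a measured binding site. The 5 stretches that follow are the 100 bases just before the RefSeq start, with CHR and CCAAT letters in capitals. They are shown because in each a CHR lies within 40 bases of the start and a CCAAT box lies before it. Cdk1 is chr10:69352913-69353012 on the minus strand, Cdc20 chr4:118437344-118437443 on the minus strand, Kif11 chr19:37376282-37376381 on the plus strand, Prc1 chr7:80294376-80294475 on the plus strand and Top2a chr11:99024190-99024289 on the minus strand.
Cdk1: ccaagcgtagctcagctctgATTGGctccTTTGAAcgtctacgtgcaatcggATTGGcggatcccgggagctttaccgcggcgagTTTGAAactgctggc
Cdc20: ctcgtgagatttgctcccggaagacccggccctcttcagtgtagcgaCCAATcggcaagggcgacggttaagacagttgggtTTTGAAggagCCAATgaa
Kif11: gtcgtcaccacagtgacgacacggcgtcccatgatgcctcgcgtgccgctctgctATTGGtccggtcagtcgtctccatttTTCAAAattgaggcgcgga
Prc1: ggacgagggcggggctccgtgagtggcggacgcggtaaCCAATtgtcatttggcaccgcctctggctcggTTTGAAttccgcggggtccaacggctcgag
Top2a: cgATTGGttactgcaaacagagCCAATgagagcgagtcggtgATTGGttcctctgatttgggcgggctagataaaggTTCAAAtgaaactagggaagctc
Counted back from the start, the first base of the nearest CHR is at -15 in Cdk1, -18 in Cdc20, -19 in Kif11, -30 in Prc1 and -23 in Top2a. Prc1 has another RefSeq start, from which the same CHR is at -5. The nearest CCAAT box upstream begins 33 bases before that CHR in Cdk1, 35 in Cdc20, 26 in Kif11, 32 in Prc1 and 35 in Top2a. These distances describe the 5 stretches shown. Ube2c, whose stretch reaches farther into the annotated gene, and Ncapg, whose CCAAT letters lie outside the 100 bases, also have a CHR that close to the start after a CCAAT box and are not shown. Nuf2, Nusap1, Ncaph, Mybl2 and Birc5 had neither word in the window.

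Depth, inferred from the spacing of the lowest values within a library, was 16289855 to 25534259 reads per library, and the least covered value of a mitosis gene (Ccnb1 in WT at 10 nM, replicate 1) rested on 278 reads, a counting error of 6.00%. Rara, the gene that the genotype labels name, stood at 16.5 and 18.9 FPKM in WT at 0 nM, 19.5 and 19.3 in the libraries labelled KO and 72.8 and 63.3 in those labelled TG, so the level of Rara does not mark KO apart from WT. Xist and Ddx3y placed the WT libraries as male, those labelled KO as female, and TG as male in replicate 1 and female in replicate 2, so sex and the KO label cannot be told apart. The 8 T-cell markers summed to 1004 to 1484 FPKM in every library. Some markers of other cells moved with replicate number or with a group, as given beside the results.

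Every mitosis gene was detected in all 12 libraries, the lowest value being 2.56 FPKM for Anln in KO at 0 nM, replicate 1. The highest mean levels over the 12 libraries were those of Top2a at 136 FPKM, the topoisomerase that untangles chromosomes, and of the condensin core subunits Smc4 at 123 and Smc2 at 78.7. The lowest were those of Ccnb1 at 6.14, Cenpf at 4.65 and Anln at 3.48. Group means of 35 of the 40 were highest in TG at 0 nM and of the other 5 in WT at 0 nM, and means were lowest in KO at 10 nM for 24, in TG at 10 nM for 14 and in WT at 10 nM and KO at 0 nM for 1 each. Summed over the 40 genes, replicates 1 and 2 stood at 1295 and 1633 FPKM in WT at 0 nM and 1072 and 1461 in WT at 10 nM. In the libraries labelled KO the sums were 1057 and 1538 at 0 nM and 969 and 1353 at 10 nM. In TG they were 1510 and 1619 at 0 nM and 1129 and 1299 at 10 nM. In WT and KO the 2 replicates of a group lay farther apart than the means of the 2 doses, and in TG both libraries with RA lay under both without. In bulk RNA, fewer cells in mitosis and less RNA per cell cannot be told apart.

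**Figure D1:**
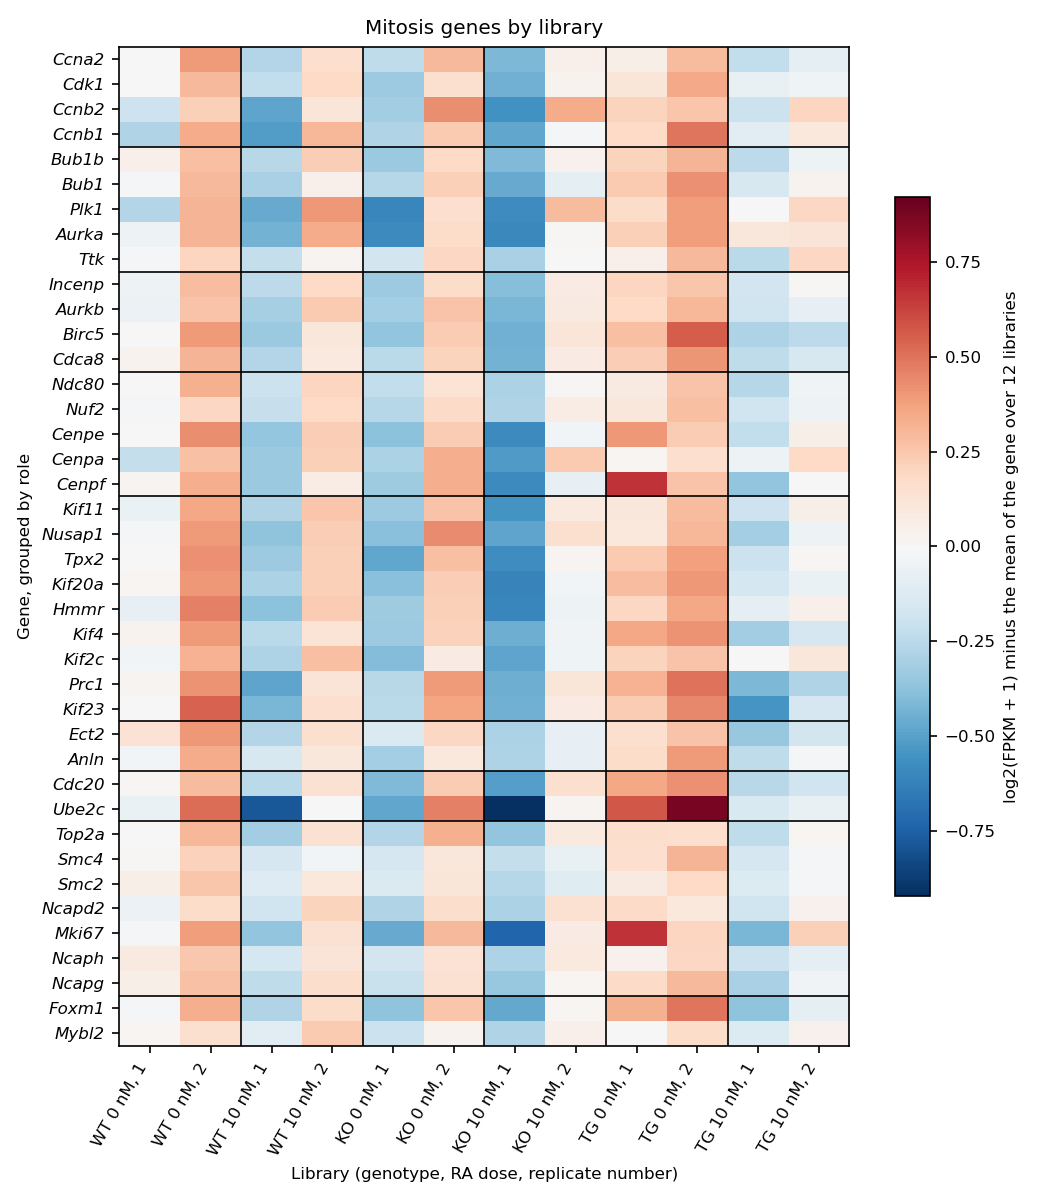
Level of each of the 40 mitosis genes (rows, grouped by role) in each of the 12 libraries (columns), as log2(FPKM + 1) minus the mean of that gene over the libraries, red above and blue below. Replicate 2 is redder than replicate 1 in nearly every pair of columns, and both TG libraries at 0 nM are redder than both at 10 nM for 35 of the 40 genes.

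The 2 replicates of a group stood apart along these genes. All 40 were higher in replicate 2 than in replicate 1 in WT at 0 nM, WT at 10 nM, KO at 0 nM, KO at 10 nM and TG at 10 nM, and 35 of 40 were in TG at 0 nM. Over all 11922 tested genes the share higher in replicate 2 was 49.4, 49.5, 51.3, 51.5, 50.4 and 57.6% in the same order. The median ratio of replicate 2 to replicate 1 on the FPKM + 1 scale was 1.27 and 1.36 in WT, 1.46 and 1.40 in KO and 1.12 and 1.14 in TG, at 0 and 10 nM. The 5 exceptions in TG at 0 nM were Mki67 (89.5 and 64.5 FPKM), Cenpf (7.73 and 5.58), Cenpe (15.9 and 14.1), Ncapd2 (66.9 and 63.5) and Top2a (151 and 149.8). The 32 S-phase genes, which copy DNA earlier in the same cycle, had medians of 0.03 to 0.16 for the log2 difference of replicate 2 minus 1, against 0.16 to 0.55 for the mitosis genes. Some other mitotic genes moved the same way, so the pattern was not limited to the 40. Medians were 0.08 to 0.42 for 22 other motors and spindle genes, 0.12 to 0.24 for 32 other kinetochore and checkpoint genes and 0.08 to 0.32 for 18 mitotic entry regulators. They were -0.06 to 0.11 for 16 cohesin and other condensin genes. For 21 genes of the anaphase-promoting complex and mitotic exit they were 0.03 to 0.12. Neither of these last lists went above the range of the S-phase genes.

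Markers of other cells moved with replicate number too. Of the 9 tested B-cell markers 8 or 9 were higher in replicate 2 in each group, as were all 5 tested dendritic-cell and class II markers. Summed class II and dendritic markers were 23.7 to 32.2 FPKM in the replicates numbered 1 and 43.0 to 165 in those numbered 2, and the 6 monocyte markers 0.822 to 2.39 and 3.18 to 16.7, with Itgam, a defining monocyte gene, listed at 0 in every library. At most 1 of the 8 T-cell markers was higher in replicate 2 in any group. The part of these cells in the levels of the mitosis genes was not tested. The spread between replicates sets the error of each comparison: the median SE of a difference between 2 groups was 0.24 (log2) for the mitosis genes and 0.09 for all tested genes, and 90.8% of tested genes had an SE under the mitosis median.

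**Figure D2:**
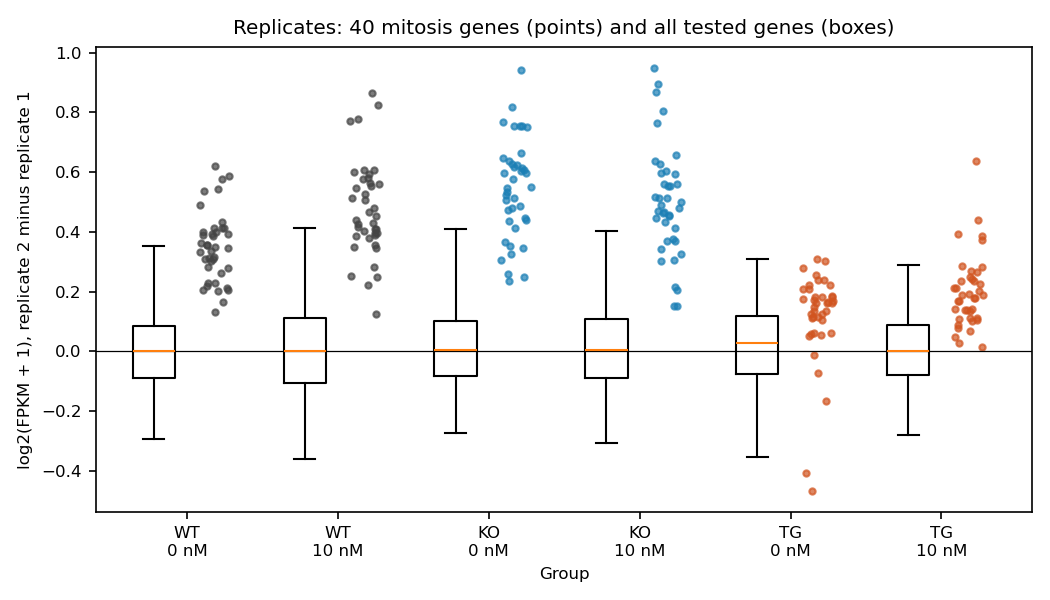
Difference of log2(FPKM + 1) between replicate 2 and replicate 1 in each group, with a point for each of the 40 mitosis genes and a box for all 11922 tested genes (line, median; box, 25th to 75th percentile; whiskers, 5th to 95th). All points lie above 0 except for 5 in TG at 0 nM, while each box is centred near 0.

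The question of the RA comparisons is how RA at 10 nM changed transcript levels in each genotype. An RA effect is the fitted difference of log2(FPKM + 1), 10 nM minus 0 nM, given ± SE, with limma's p adjusted by Benjamini-Hochberg over all tested genes and a threshold of 0.05 for a call. FPKM values are given for replicates 1 and 2 in that order. Beside each count of called mitosis genes stands the share of all tested genes that the same rule called, as background.

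In WT, no mitosis gene changed past the threshold with RA in the fit without a term for replicate number. All 40 fitted differences were nonetheless negative, from -0.62 in Ube2c to -0.01 in Mybl2. Their median was -0.20 against 0.02 over all tested genes. Limma called 0 of 40 (background 10.1%) and 0 at an unadjusted p under 0.05 (background 25.8%), and voom on recovered reads called 0. With a term for replicate number a few were called, as given at the end. The background of differences below 0 was 45.4%. The smallest adjusted p was 0.261, in Ect2, an activator of RhoA in cytokinesis. Only Smc4 had both libraries at 10 nM (110.2 and 120.1 FPKM) under both at 0 nM (123 and 142), with an effect of -0.20 ± 0.11, and 22.8% of tested genes were lower without overlap. For Ube2c, the ubiquitin-conjugating enzyme of the anaphase-promoting complex, the 95% interval of the effect in this fit ran from -1.55 to 0.31. Replicate 2 stood above replicate 1 by 0.58 (log2) at 0 nM and 0.78 at 10 nM, and this gap enters the error. Taken by replicate number, which the labels do not pair, Ube2c was lower at 10 nM in both. It stood at 20.2 and 30.7 FPKM at 0 nM and at 11.9 and 21.1 at 10 nM.

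In the libraries labelled KO, no mitosis gene was called either. Limma called 0 of 40 (background 0.143%), 0 at an unadjusted p under 0.05 (background 10.7%), and voom called 0. Fitted differences were below 0 for 39 of 40 (background 46.8%), with a median of -0.16 against 0.01 over all tested genes and a range from -0.44 in Ube2c to 0.08 in Plk1. In none of the 40 did the doses lie apart, whereas 18.2% of tested genes were lower without overlap. The smallest adjusted p was 0.629, in Smc2.

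In TG, RA lowered the chromokinesin Kif4 past the threshold, and the libraries of the 2 doses did not overlap in 35 of 40 genes. All 40 fitted differences were negative (background 52.8%), with a median of -0.36 against -0.02 over all tested genes and a range from -0.83 in Ube2c to -0.02 in Cenpa. Limma called 1 of 40, lower (background 19.4% lower and 39.1% in either direction). In this fit, which has no term for replicate number, the share of mitosis genes called was thus under the background. Their errors were larger, with a median SE of 0.24 against 0.09 over all tested genes. The count changed with other settings, as given further on. At an unadjusted p under 0.05 the count was 10 of 40, all lower (background 24.3% lower and 47.6% in either direction). All libraries at 10 nM were under all at 0 nM in 35 of 40, against 37.6% of tested genes, and the 5 that overlapped were Mki67, Plk1, Mybl2, Ttk and Cenpa.

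The call of Kif4, a motor on chromosome arms that also helps to form the central spindle, was a narrow one. Kif4 (ENSMUSG00000034311) lies on the X chromosome of GRCm38 from 100625737 to 100727214. Its levels were 19.5 and 20.4 FPKM at 0 nM and 11.9 and 13.4 at 10 nM in TG, an effect of -0.62 ± 0.22 with an adjusted p of 0.0499. In WT it stood at 15.4 and 20.1 against 12.5 and 16.5, and in KO at 11.7 and 17.5 against 10.8 and 14.7, and in both the doses overlapped. Leaving out any 1 of the 4 TG libraries ended the call, with adjusted p from 0.0997 to 0.200 at effects from -0.71 to -0.54, as did testing genes of any level (0.112), a sex term (0.0649) and a pseudocount of 0.1 (0.0514). The call held with upper-quartile scaling (0.0403), with voom on recovered reads (0.0311) and with only the TG libraries in the fit (0.00829). It also held with a term for replicate number (0.00251), though the labels do not pair the replicates. The effect stayed between -0.71 and -0.54 throughout. Counts of called mitosis genes in TG were 3 with upper-quartile scaling, 5 with voom on recovered reads and 15 with only the TG libraries in the fit, all lower. The count was higher still with a term for replicate number, as given at the end. The shares of all tested genes called under these settings are not given here, so these counts stand without a background.

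Markers also moved with RA in TG. The CD8 T-cell and NK markers summed to 46.4 and 52.7 FPKM at 0 nM and 8.90 and 9.06 at 10 nM, of which Klrd1, an NK receptor subunit that some T cells also make, was 44.4 and 50.02 and then 4.28 and 5.25. Of those 6 markers 2 were tested and 1 was called lower, and Klrb1c was listed at 0 in both TG libraries at 0 nM. The 10 B-cell markers summed to 31.8 and 34.5 at 0 nM and 109 and 107 at 10 nM, with 1 of 9 tested called higher. Fitted differences of these 9 ran from -0.37 to 1.80, with 3 below 0. Activation markers summed to 1206 and 1254 at 0 nM and 832 and 828 at 10 nM, with 2 of 6 called higher and 4 lower. They were lower with RA in the other genotypes as well, at 1145 and 1174 against 899.9 and 932 in WT, with 1 called higher and 2 lower, and at 1048 and 1028 against 925 and 924 in KO, with none called. Of the 8 T-cell markers 5 were called higher and 2 lower in TG. The part of these in the RA effect on mitosis genes was not tested.

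**Figure D3:**
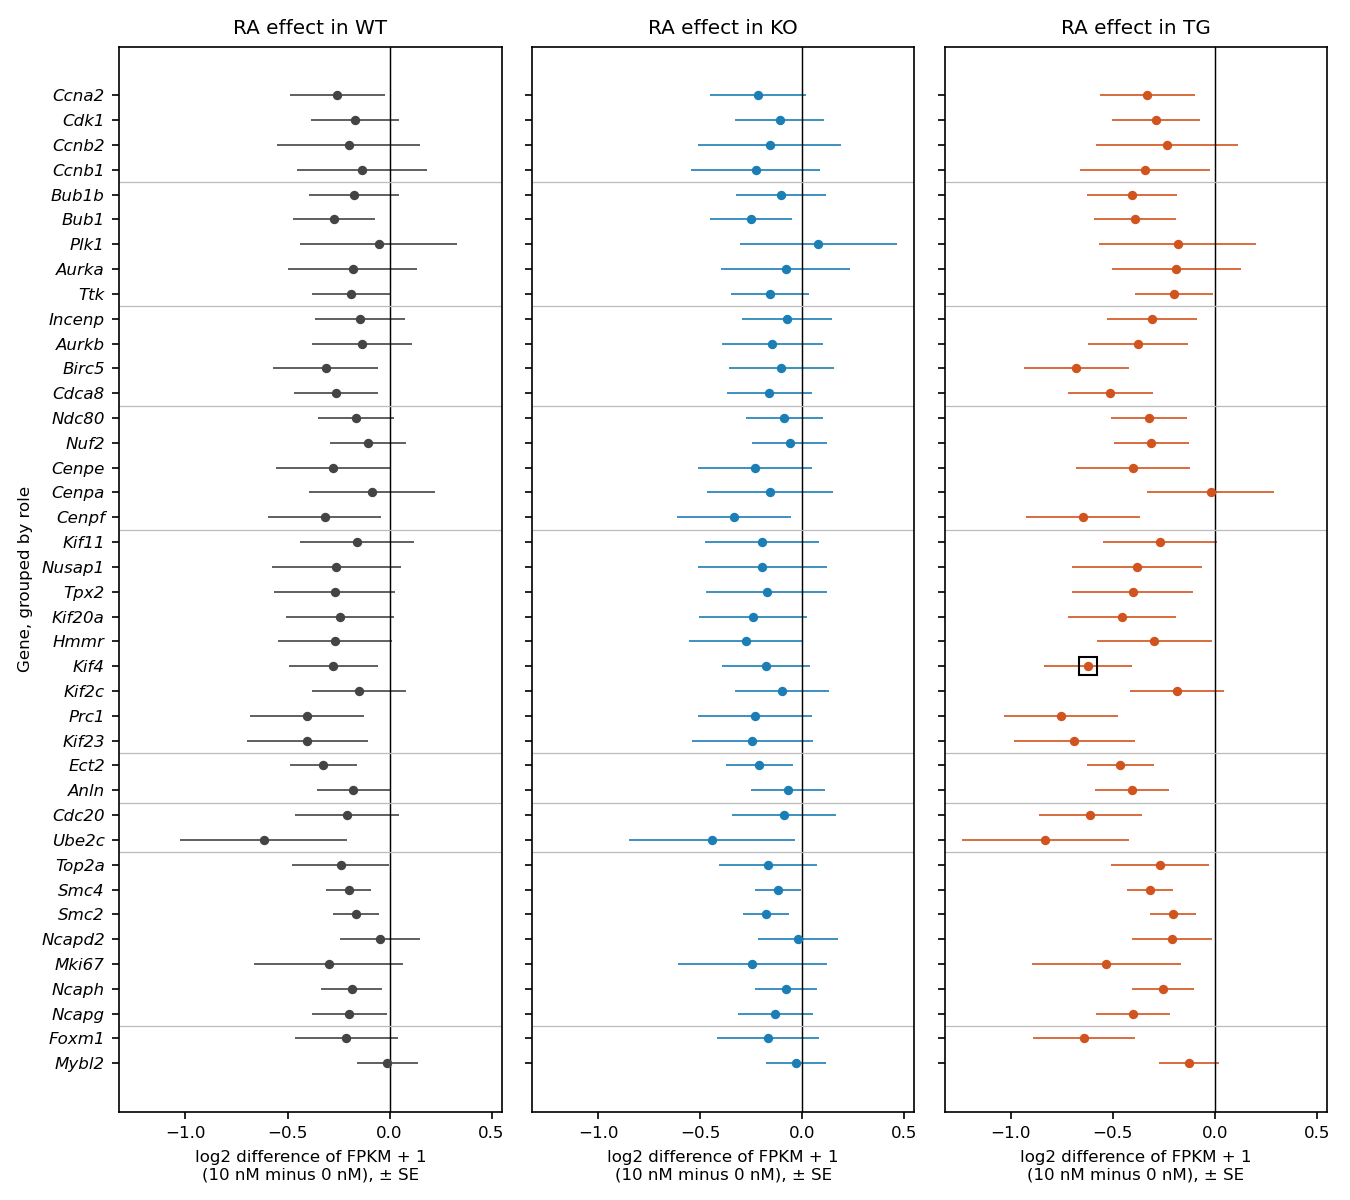
RA effect on each of the 40 mitosis genes (rows, grouped by role) in WT, KO and TG, as the fitted difference of log2(FPKM + 1), 10 nM minus 0 nM, with bars of 1 SE; an open square marks a call at an adjusted p under 0.05. Nearly all points lie left of 0 in the 3 panels, farthest in TG, and the only square is at Kif4 in TG.

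Among the cyclins and their kinase, no gene was called in any genotype, and the 4 effects in TG had a median of -0.31, against -0.18 in WT and -0.19 in KO. Cdk1, the kinase that triggers mitosis, stood at 32.4 and 38.4 FPKM at 0 nM and 28.4 and 29.0 at 10 nM in TG, at 29.7 and 36.9 against 25.4 and 34.0 in WT, and at 23.4 and 33.2 against 21.6 and 30.6 in KO. Its effects were -0.29 ± 0.22 in TG, -0.17 ± 0.22 in WT and -0.11 ± 0.22 in KO, with adjusted p of 0.331, 0.686 and 0.899. The doses lay apart in TG and overlapped in WT and KO. Ccna2, cyclin A2, stood at 73.4 and 86.9 against 60.2 and 66.6 in TG, at 70.8 and 93.4 against 58.5 and 78.9 in WT, and at 59.97 and 87.3 against 52.8 and 73.1 in KO. Ccnb1, cyclin B1, stood at 6.92 and 8.82 against 5.49 and 6.46 in TG, at 4.75 and 7.84 against 3.88 and 7.64 in WT, and at 4.77 and 7.23 against 4.01 and 5.92 in KO. Both repeated the pattern of Cdk1, with replicate 2 above replicate 1 in every group.

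None of the 5 kinases of the spindle and its checkpoint was called in any genotype. Plk1, which drives spindle assembly and mitotic exit, stood at 25.5 and 29.9 FPKM at 0 nM and 22.7 and 26.0 at 10 nM in TG, at 18.6 and 28.4 against 16.2 and 30.2 in WT, and at 14.6 and 25.3 against 14.8 and 27.9 in KO. Its doses overlapped in each genotype, and it was the gene with a fitted difference above 0 in KO. Bub1, a checkpoint kinase at the kinetochore, stood at 31.0 and 35.4 against 23.5 and 26.7 in TG, at 26.0 and 32.4 against 21.1 and 27.0 in WT, and at 21.6 and 30.6 against 18.7 and 24.6 in KO. The Bub1 effect in TG was -0.39 ± 0.20 with an adjusted p of 0.157. Aurka, Bub1b and Ttk had effects of -0.19, -0.40 and -0.20 in TG, none of them called.

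The chromosomal passenger complex corrects wrong attachments and later directs cytokinesis, and its 4 members had a median effect of -0.44 in TG, -0.20 in WT and -0.12 in KO. Aurkb, its kinase, stood at 40.4 and 44.1 FPKM at 0 nM and 31.1 and 33.6 at 10 nM in TG, at 34.1 and 42.6 against 28.5 and 42.1 in WT, and at 28.3 and 42.7 against 26.2 and 37.5 in KO. Birc5, known as survivin, stood at 37.3 and 45.5 against 24.9 and 25.8 in TG, at 30.4 and 40.5 against 23.9 and 33.0 in WT, and at 23.6 and 36.2 against 22.2 and 33.1 in KO. The Birc5 effect of -0.68 ± 0.26 in TG missed the threshold with an adjusted p of 0.0666. Incenp and Cdca8, the scaffold and the subunit known as borealin, had effects of -0.31 and -0.51 in TG. All 4 were lower without overlap at 10 nM in TG, and none in WT or KO. Over all tested genes the shares were 37.6% in TG, 22.8% in WT and 18.2% in KO.

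At the centromere the effects in TG ran from -0.65 in Cenpf to -0.02 in Cenpa. Cenpa, the histone that marks the centromere, stood at 8.74 and 9.68 FPKM at 0 nM and 8.28 and 9.92 at 10 nM in TG, at 7.26 and 10.6 against 6.59 and 10.2 in WT, and at 6.83 and 11.1 against 5.69 and 10.4 in KO, so its doses overlapped throughout. Cenpf, a large outer kinetochore protein, stood at 7.73 and 5.58 against 3.26 and 4.52 in TG, at 4.58 and 5.91 against 3.33 and 4.75 in WT, and at 3.37 and 5.92 against 2.66 and 4.22 in KO. Ndc80 and Nuf2, partners in the complex that binds microtubules, had effects of -0.32 and -0.31 in TG, and the kinesin Cenpe one of -0.40.

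The 9 kinesins and spindle proteins held the call of Kif4 and had a median effect of -0.40 in TG, -0.27 in WT and -0.20 in KO. Kif11, the motor that pushes the spindle poles apart, stood at 61.4 and 69.8 FPKM at 0 nM and 49.8 and 59.1 at 10 nM in TG, at 54.6 and 73.1 against 46.9 and 68.0 in WT, and at 45.0 and 68.6 against 38.6 and 60.6 in KO, with an effect of -0.27 ± 0.28 in TG. Prc1, which bundles the central spindle, had the most negative effect of these 9 in TG, at -0.76 ± 0.28 with an adjusted p of 0.0613. Its levels, looked up after the effect was seen, were 15.7 and 17.96 against 9.07 and 10.1 in TG, 12.7 and 16.9 against 8.57 and 13.6 in WT, and 10.2 and 16.6 against 8.83 and 13.5 in KO. Central spindle motors Kif23 and Kif20a had effects of -0.69 and -0.45 in TG, and the spindle proteins Tpx2, Nusap1, Hmmr and Kif2c effects of -0.40, -0.38, -0.30 and -0.18.

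Of the cytokinesis genes, Ect2 had an effect of -0.46 ± 0.16 in TG with an adjusted p of 0.0541, and Anln, a scaffold of the contractile ring, one of -0.41 ± 0.18 with an adjusted p of 0.109. Anln stood at 3.98 and 4.80 FPKM at 0 nM and 2.77 and 3.36 at 10 nM in TG, at 3.35 and 4.60 against 3.004 and 3.76 in WT, and at 2.56 and 3.73 against 2.64 and 3.20 in KO. The partners of the anaphase-promoting complex had the lowest median of the roles, -0.72 in TG, -0.41 in WT and -0.27 in KO over 2 genes. Cdc20, its activator, stood at 41.2 and 43.0 against 26.6 and 27.9 in TG, at 32.2 and 39.3 against 26.7 and 35.2 in WT, and at 23.8 and 37.6 against 22.2 and 35.5 in KO. Ube2c, whose library values were chosen for print after its effect was seen, stood at 32.0 and 39.7 against 19.1 and 20.2 in TG, at 20.2 and 30.7 against 11.9 and 21.1 in WT, and at 15.0 and 29.6 against 10.7 and 21.6 in KO. In both genes the TG doses lay far apart beside the gap between replicates, while in WT and KO they overlapped.

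Condensin subunits and other chromosome proteins had a median effect of -0.27 in TG, -0.20 in WT and -0.13 in KO over 7 genes. Top2a (ENSMUSG00000020914, chromosome 11, 98992943 to 99024189) stood at 151 and 149.8 FPKM at 0 nM and 114 and 136 at 10 nM in TG, at 134 and 167 against 108 and 149 in WT, and at 111 and 169.6 against 104 and 143 in KO. Smc4 stood at 136 and 153 against 110.1 and 121 in TG, at 123 and 142 against 110.2 and 120.1 in WT, and at 109.9 and 132 against 105 and 117 in KO, and its effect of -0.32 ± 0.11 in TG had an adjusted p of 0.0520. Smc2, its partner, stood at 82.8 and 89.1 against 71.7 and 77.2 in TG, at 81.2 and 93.6 against 71.8 and 83.9 in WT, and at 71.1 and 84.7 against 65.0 and 72.3 in KO. Smc4 and Smc2 had the smallest errors of the 40, an SE of 0.11 each. Mki67, which coats mitotic chromosomes and is the proliferation marker Ki-67, stood at 89.5 and 64.5 against 41.7 and 65.4 in TG, at 55.8 and 73.5 against 43.4 and 62.0 in WT, and at 40.3 and 69.4 against 33.5 and 59.2 in KO. Its TG replicates ran in opposite order at the 2 doses, and the effect of -0.53 ± 0.37 had an adjusted p of 0.290. The other condensin subunits Ncapg, Ncaph and Ncapd2 had effects of -0.40, -0.25 and -0.21 in TG.

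Neither of the 2 transcription factors of the programme was called, and the difference between their effects was not tested. Foxm1, a forkhead activator of late cycle genes, stood at 21.2 and 23.9 FPKM at 0 nM and 12.6 and 15.6 at 10 nM in TG, at 16.5 and 21.3 against 13.6 and 18.8 in WT, and at 12.7 and 20.1 against 11.8 and 16.9 in KO. Its effect in TG was -0.64 ± 0.25 with an adjusted p of 0.0752. Mybl2, the B-Myb subunit partner of MuvB, stood at 13.3 and 15.0 against 12.1 and 13.7 in TG, at 13.4 and 14.8 against 12.3 and 15.9 in WT, and at 11.4 and 13.6 against 10.8 and 13.7 in KO. The doses of Mybl2 overlapped in each genotype, with an effect of -0.13 ± 0.15 in TG.

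**Figure D4:**
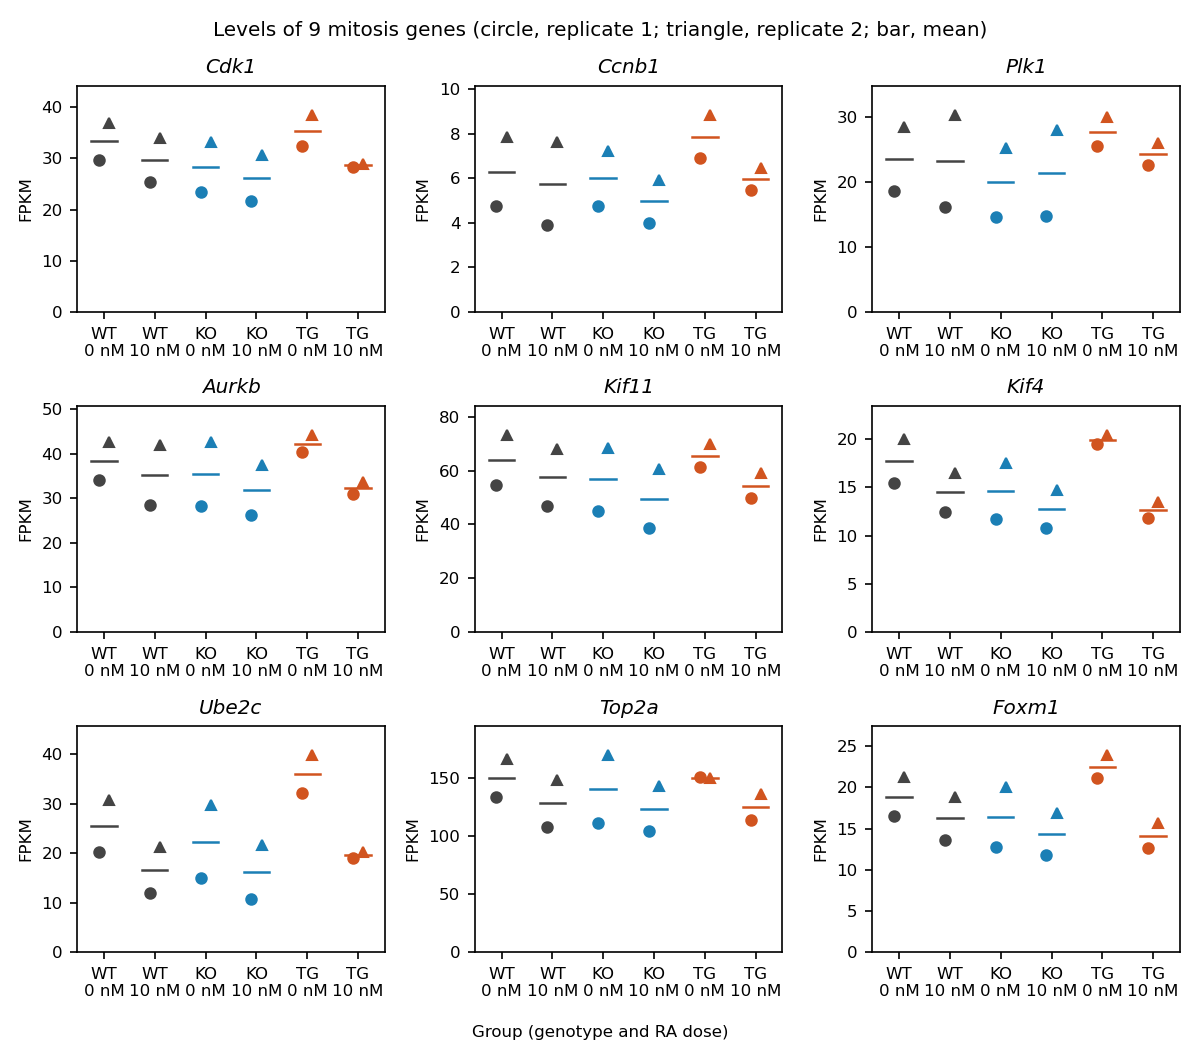
FPKM of 9 mitosis genes in the 6 groups, with a circle for replicate 1, a triangle for replicate 2 and a bar for their mean, and a linear axis from 0. In WT and KO the triangles stand well above the circles at both doses, and in TG both points at 10 nM are under both at 0 nM except for Plk1.

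Whether the RA effect differed between genotypes was tested directly, and no mitosis gene passed. For TG minus WT limma called 0 of 40 (background 7.48%) and 0 at an unadjusted p under 0.05 (background 21.7%), and voom called 0. The differences were below 0 for 39 of 40 (background 56.4%), with a median of -0.15, the lowest in Foxm1 at -0.43 ± 0.36 with a 95% interval from -1.24 to 0.38 and the highest in Cenpa at 0.07. For KO minus WT limma called 0 of 40 (background 0.00839%) and 0 at an unadjusted p under 0.05 (background 5.37%), and voom called 0. There 8 of 40 differences were below 0 (background 52.5%), with a median of 0.06. Both differences use the same WT libraries. A larger RA effect in TG than in WT is therefore not shown for any of the 40 genes.

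Genotypes were also compared at each dose, and again no mitosis gene was called. KO against WT gave 0 of 40 at 0 nM (background 1.74%) and 0 at 10 nM (background 0.881%) by limma, and TG against WT gave 0 at 0 nM (background 4.31%) and 0 at 10 nM (background 11.5%). At an unadjusted p under 0.05 the count was 0 in each, against backgrounds of 15.2, 11.1, 18.8 and 26.1% in the same order, and voom called 0 in each. In KO the fitted levels were under WT for 39 of 40 at 0 nM (background 45.9%) and 38 at 10 nM (background 48.6%), with medians of -0.20 and -0.13. Aurka had the lowest difference at 0 nM, -0.34 ± 0.32, and Kif20a at 10 nM, -0.28 ± 0.26. In TG the levels were under WT for 4 of 40 at 0 nM (background 46.6%) and 28 at 10 nM (background 55.2%), with medians of 0.10 and -0.07. At 0 nM both TG libraries stood above both WT libraries in Ube2c and Cdc20, 2 of 40 against 26.1% of tested genes, with differences of 0.50 ± 0.41 and 0.24 ± 0.25. The 2 doses share no libraries, but the KO and TG comparisons share those of WT.

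With 1 library left out, the direction of the RA effect in WT and KO, and of the 6 comparisons between genotypes, depended on which library it was. Such a fit also leaves the replicate numbers uneven between groups, and the mitosis genes differed with number. Taken by number, which the labels do not pair, sums over the 40 genes were lower at 10 nM in both replicates of WT and KO. They went from 1295 to 1072 and from 1633 to 1461 FPKM in WT, and from 1057 to 969 and from 1538 to 1353 in KO. Without the first WT replicate at 10 nM the median over the 40 genes was 0.01, with 22 above 0, and without the second WT replicate at 0 nM it was -0.06, with 13 above 0. Without the other 2 WT libraries in turn it was -0.38 and -0.44, with all 40 below 0. In KO the median was 0.10 without the second replicate at 0 nM, with 36 above 0, and 0.09 without the first at 10 nM, with 34 above 0, against -0.44 and -0.40 without the first at 0 nM or the second at 10 nM. In TG it stayed between -0.44 and -0.25 whichever of the 4 libraries was left out, with 38 to 40 genes below 0. The median of the TG minus WT difference in RA effect ran from -0.40 to 0.06, with 29 genes above 0 without the second WT replicate at 10 nM, and that of KO minus WT from -0.20 to 0.31. For KO against WT it ran from -0.48 to 0.07 at 0 nM, with 30 above 0 without the first KO replicate, and from -0.37 to 0.09 at 10 nM, with 35 above 0 without the first KO replicate. For TG against WT it ran from -0.04 to 0.30 at 0 nM and from -0.29 to 0.16 at 10 nM, where all 40 lay above 0 without the second WT replicate.

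**Figure D5:**
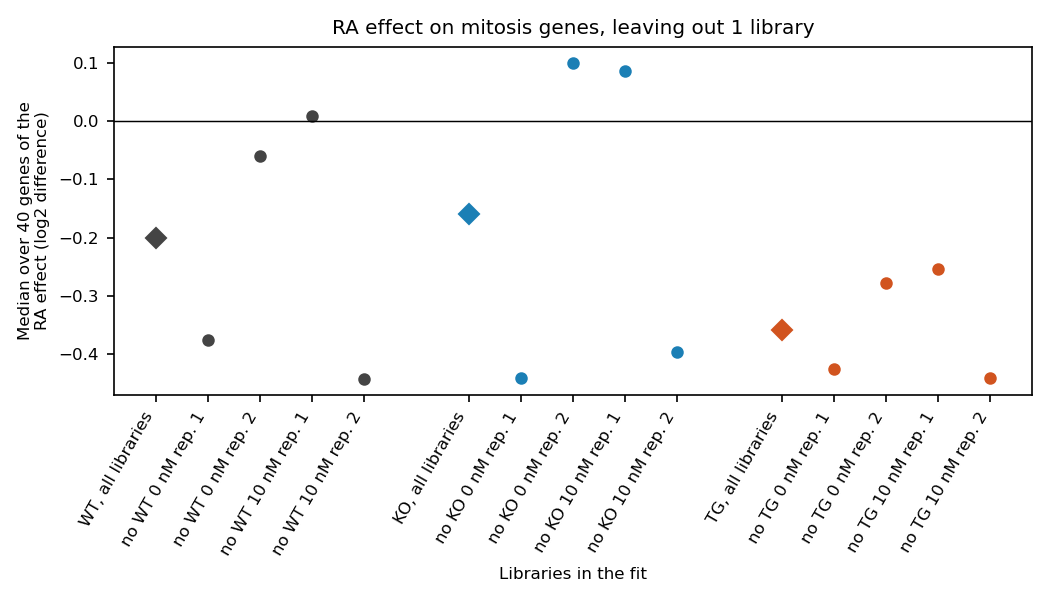
Median over the 40 mitosis genes of the RA effect (fitted log2 difference, 10 nM minus 0 nM) with all libraries (diamonds) and with 1 library left out (circles). In WT and KO the circles spread from -0.44 to 0.10, and in TG all lie from -0.44 to -0.25. Leaving out 1 library leaves the replicate numbers uneven between the doses.

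Other genes of the cell cycle, in lists drawn up by role, give the surroundings of these values. In WT, RA raised 1 of 15 tested G1 genes, Cdkn2d, an inhibitor of Cdk4 and Cdk6, by 0.51 ± 0.05 on the log2 scale (adjusted p = 0.00118), and lowered another, the G1 kinase Cdk6, with a difference of -0.62 ± 0.11 (adjusted p = 0.0107). It raised Cdc14a, a phosphatase, by 0.46 ± 0.07, 1 of 21 genes of the anaphase-promoting complex and mitotic exit. Of 32 S-phase genes it raised the replication factor Gins1 by 0.30 ± 0.07. None of 32 other kinetochore genes, 22 other motors and spindle genes, 16 cohesin and condensin genes, 18 mitotic entry regulators and 19 E2F and MuvB factors was called in WT, where 10.1% of tested genes were called. In KO no gene of these 8 lists was called, against 0.143% of tested genes.

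In TG the calls were more frequent and ran in both directions. Of 15 G1 genes 6 rose and 5 fell: Cdkn2d rose by 1.49 ± 0.05, while Cdk6 fell, with a difference of -1.65 ± 0.11, and so did the inhibitor Cdkn1a, with -1.09 ± 0.24. The 6 include the cyclin Ccnd1, which reached 1 FPKM only in the 2 TG libraries at 10 nM and so entered the test through the group in which it is high. Of 32 S-phase genes 2 rose and 10 fell, among them the helicase subunit Mcm3 with -0.41 ± 0.06, and the list median was -0.14. Of 32 other kinetochore and checkpoint genes 0 rose and 6 fell, the lowest being Cenpi with -0.61 ± 0.16, Cenpw with -0.43 ± 0.14 and Dsn1 with -0.40 ± 0.12, and the median was -0.21. Of 19 E2F and MuvB factors 3 rose and 6 fell, among them Mybl1, a relative of Mybl2, with -0.52 ± 0.14 and Lin54, the MuvB subunit that reads the CHR, with -0.48 ± 0.09. The anaphase-promoting complex and mitotic exit list had 2 higher and 4 lower of 21, mitotic entry regulators 1 and 1 of 18, cohesin and condensin genes 1 and 0 of 16, and other motors 0 and 0 of 22 with a median of -0.22. Shares of lower calls of 19.4% and higher calls of 19.7% over all tested genes are the background for each of these lists.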

How the data were processed

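RNA-seq of 12 libraries was analysed from 1 table of FPKM that the authors deposited. GRCm38.p5, mm10, DESeq2, HTSeq 0.6.1, STAR and Trimmomatic 0.32 appear in the submitters' processing notes, with no order or role. The strand setting of the counting is not given in the sources used here. Per the labels' protocols, libraries were stranded and read from one end. Mitosis genes, related lists and markers were chosen with earlier results of these data known. All 40 mitosis genes may be named, library values being given for at least 1 gene of each role, every called one and the 3 highest and lowest.

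The 11922 genes that reached 1 FPKM in 2 or more libraries were fitted with limma 3.58.1 in R 4.3.3 (trend) on log2(FPKM + 1), with 1 mean per group and 6 residual degrees of freedom. P-values were two-sided, adjusted by Benjamini-Hochberg within each of 9 comparisons. Differences on this scale understate the change of low genes. Values of up to 20 reads lay within 0.02 of a whole read in 95.3 to 95.9% of cases, which gave the depth and the reads for limma voom (11910 genes); depth limits counting error only, and reads are not independent molecules. Replicates correlated at 0.981 to 0.987 over genes, and no 2 libraries were identical. On simulated reads for RA in TG (11910 genes), calls were made for 62 of 66 genes given a 4-fold change, 40 of 67 given a 2-fold change, 6 of 67 given a 1.5-fold change and 9 of 11710 left unchanged. The simulation gave every gene the same spread beyond counting and no shift shared by a replicate. Few genes were changed in it, against 39.1% of tested genes called for RA in TG. It therefore does not give the sensitivity of the test on these data. Positions are from GENCODE M21 on GRCm38 and promoter sequences from RefSeq (GRCm38.p6). Tables were handled in Python 3.11.15 with pandas 2.3.3. One gene of the S-phase list is not reported here.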

Additional observations from a re-analysis of the deposited data

Results flagged for a closer look

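For 5 genes of the related cell-cycle lists, none of them among the 40 mitosis genes, the test of the difference itself found that the RA effect in TG was not that in WT (limma, adjusted over all tested genes, of which 7.48% passed). By list, 2 were higher and 1 lower of 15 tested G1 genes. Of 21 anaphase-promoting complex and mitotic exit genes 1 was higher, and of 19 E2F and MuvB factors 1 was lower. None passed of 32 other kinetochore genes, 22 other motors and spindle genes, 16 cohesin and condensin genes, 18 mitotic entry regulators and 32 S-phase genes. For Cdkn2d the difference of the RA effect, TG minus WT, was 0.98 ± 0.08 (adjusted p = 0.00025), with RA effects of 1.49 in TG and 0.51 in WT. For Cdk6 it was -1.03 ± 0.15 (adjusted p = 0.00555), with effects of -1.65 and -0.62. For Ccnd1 it was 1.25 ± 0.22 (adjusted p = 0.0117), with 1.98 and 1.37 FPKM in TG at 10 nM against 0.0376 to 0.169 FPKM in the 4 WT libraries. Ccnd1 reached 1 FPKM only in those 2 TG libraries and was tested because of them, so its test supports nothing further. For Cdc14a it was 0.51 ± 0.11 (adjusted p = 0.0236), with effects of 0.97 and 0.46. For Nfya, a subunit of the CCAAT-binding factor NF-Y, it was -0.29 ± 0.07 (adjusted p = 0.0473), with effects of -0.31 and -0.03.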

How the results depend on the processing

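Among the 9 comparisons, the count of called mitosis genes moved only for RA in TG and, with a replicate block, for RA in WT. For RA in TG the count of 1 became 0 with a pseudocount of 0.1, 0 with no filter on low values, 3 with upper-quartile scaling, 15 with only the TG libraries in the fit and 5 with voom, chosen after seeing the data, and ranged from 0 to 0 when 1 TG library was left out. With a sex term, also chosen after seeing the data, the count was 1, but the gene called was Smc4 and not Kif4. The labels do not say that the replicate numbers pair the samples, so numbers were not taken as pairs. Over all tested genes the correlation of replicate differences ran from 0.0035 to 0.327 between groups. Between doses it was 0.327 in WT, 0.3197 in KO and 0.147 in TG. In TG replicate 1 was male and replicate 2 female at both doses, and most mitosis genes were higher in replicate 2 in every group. Summed class II and dendritic markers also went with number at both doses. In WT at 0 and 10 nM they were 23.7 and 26.0 FPKM in replicate 1, and 157 and 165 in replicate 2. In KO they were 26.5 and 25.6 in replicate 1, and 73.2 and 78.3 in replicate 2. In TG they were 27.5 and 32.2 in replicate 1, and 43.7 and 43.0 in replicate 2. Whether a number stands for the same source of cells at both doses was not tested. If it does, the fit without a replicate term puts a shift shared by both doses into the error. With a replicate block the counts were 25 for RA in TG, 3 for RA in WT and 0 in the other comparisons. Shares of all tested genes called under these settings are not given here. Over 23 mitosis genes and 3 RA comparisons, leaving out 1 library turned the sign of 54 of 276 values, none of them a called one. Depth does not limit these comparisons as much as the spread between 2 replicates does. On simulated reads, which do not copy the spread of these data, most 1.5-fold changes were missed with 2 libraries a group.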
